A study of Mus musculus with 36 samples.

Results

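The contactins and contactin-associated proteins were followed across an allelic series of *Chd8*, the gene of a chromatin remodeller, in the mouse embryonic cortex. The group held 10 of the 46603 genes in the count tables, 6 contactins (*Cntn1* to *Cntn6*) and 4 contactin-associated proteins (*Cntnap2*, *Cntnap4*, *Cntnap5a* and *Cntnap5c*). The list does not hold the whole family, since *Cntnap1*, *Cntnap3* and *Cntnap5b* were counted among the partner genes. It was drawn up with earlier results of these data known. *Cntnap5c* was chosen by its measured values, because its fall in Chd8neo/- against Chd8+/+ was known to be among the largest. For this reason all values of that comparison are given as a description with no test of the members, and *Cntnap5c* was not tested in any comparison with the Chd8+/+ libraries.

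Contactins are immunoglobulin-domain adhesion molecules held on the surface of neurons by a lipid anchor, and they act in axon growth, fasciculation and the pairing of axons with glia. Contactin-associated proteins are transmembrane relatives of the neurexins. In the mature nervous system, *Cntn1* and *Cntnap1* products join axon and glia beside the node of Ranvier, while *Cntn2* and *Cntnap2* products gather potassium channels in the neighbouring juxtaparanode. In the embryonic cortex, well before myelin forms, genes of these families serve young neurons and their axons, which need not hold for every member at every stage.

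Cortex was taken at embryonic day 12.5 (E12.5) from C57Bl/6J embryos that were Chd8+/+, Chd8+/-, Chd8neo/neo or Chd8neo/-, with 3 libraries of 1 embryo each per genotype. The null allele lacks exon 3, and the neo allele keeps a selection cassette after that exon which lowers normal expression, so that Chd8neo/- embryos carried 1 neo and 1 null allele. At embryonic day 10.5 (E10.5), 3 cKO libraries (sox1-Cre; Chd8f/f) were set against 3 Ctrl libraries, which the labels give as Chd8f/f or Chd8f/+, and each library pooled 2 embryos. Sox1-Cre deletes in the early neural lineage, so cells of other origin keep *Chd8*, and 1 set of Chd8+/+ libraries served every mutant genotype.

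Total counts ranged from 38774591 to 61051667 at E12.5 and from 49632937 to 68488879 at E10.5. *Chd8* itself averaged 237 ± 2.41 CPM (counts relative to the TMM-scaled library total, mean ± SD, n = 3) in Chd8+/+, 167 ± 3.04 in Chd8+/-, 209 ± 5.64 in Chd8neo/neo and 149 ± 8.38 in Chd8neo/-. The E10.5 libraries gave 171 ± 12 in Ctrl and 121 ± 4.78 in cKO. The *Chd8* level was thus lower than in controls in every mutant group, and reads of an interrupted transcript cannot be told apart from reads of a normal transcript in a count per gene. The dorsal forebrain genes were present in all E12.5 libraries, with *Emx1* at 35.8 to 69.3 CPM, *Emx2* at 109 to 160 CPM, *Lhx2* at 358 to 499 CPM and *Pax6* at 148 to 185 CPM. At E12.5, *Xist* lay between 1458 and 2043 CPM in 1 Chd8+/+, 1 Chd8+/- and 2 Chd8neo/neo libraries (replicates 1 and 2) and at most at 2.49 CPM in the others, all Chd8neo/- libraries among them, so the sex of the embryos was not balanced between genotypes.

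To see which family members the embryonic cortex uses, levels were compared per length, as CPM per kilobase of exon. In Chd8+/+ cortex at E12.5, *Cntnap2* (23.2 ± 0.685 CPM per kilobase) and *Cntn2* (18.2 ± 0.980) stood far above the rest. *Cntnap4* followed at 1.32 ± 0.173, *Cntn1* at 0.945 ± 0.0845, *Cntn5* at 0.804 ± 0.0605 and *Cntn6* at 0.593 ± 0.0689. *Cntn3* (0.442 ± 0.0193) and *Cntn4* (0.429 ± 0.0682) were the neighbours whose libraries overlapped. *Cntnap5a* (0.165 ± 0.0194) and *Cntnap5c* (0.0893 ± 0.0244) were lowest, and apart from *Cntn3* and *Cntn4* each gene lay above the next in the order in all 3 libraries.

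The order differed at E10.5, where the table was normalized separately and only levels are set side by side. *Cntnap2* was already at 20.3 ± 3.75 CPM per kilobase in Ctrl libraries. *Cntn2*, whose product TAG-1 marks early projecting axons, was at 0.230 ± 0.0660 there. *Cntn6* (0.313 ± 0.133), *Cntn2*, *Cntn3* (0.198 ± 0.0300) and *Cntn1* (0.172 ± 0.0315) formed a middle group in which each gene overlapped the next. *Cntnap4* (0.0528 ± 0.0139) lay below *Cntn1* in all libraries, and from *Cntnap4* down through *Cntn5*, *Cntn4*, *Cntnap5a* and *Cntnap5c* each gene overlapped the next. Markers of early neurons were low at this stage as well: the 12 genes of that list summed to between 255 and 439 CPM in Ctrl at E10.5 and between 4069 and 4810 CPM in Chd8+/+ at E12.5.

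**Figure D1:**
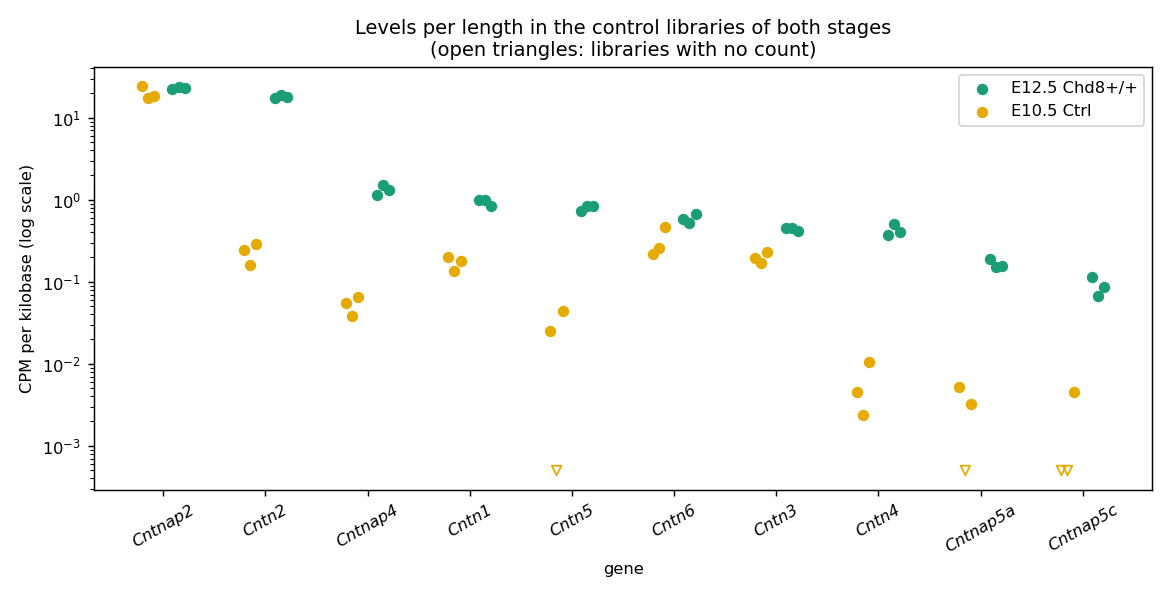
Level per length (CPM per kilobase of exon, log axis) of the 10 genes in the 3 Ctrl libraries at E10.5 (yellow) and the 3 Chd8+/+ libraries at E12.5 (green), 1 point per library, with open triangles where a library had no count. *Cntnap2* sits near 20.3 at E10.5 and 23.2 at E12.5, while *Cntn2* sits near 0.230 and 18.2.

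The comparison of Chd8+/- with Chd8+/+ asked whether loss of 1 allele shifted these genes. None of the 9 members tested was called in either direction by edgeR's quasi-likelihood test (adjusted p under 0.05), where 0.0213% of all genes tested were called, and 1 member had an unadjusted p under 0.05. DESeq2 also called 0 members. The median log2 fold change of the 10 members, the untested *Cntnap5c* included, was 0.08, against 0.0012 over all genes.

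In Chd8neo/neo against Chd8+/+, 2 of the 9 members tested fell (*Cntn1* and *Cntn4*) and none rose. Of all genes tested, 8.16% were called in either direction and 4.45% were called lower. The median log2 fold change of the 10 members was -0.40, against 0.0053 over all genes tested. It includes *Cntnap5c*, which was chosen by its fall against these Chd8+/+ libraries. In Chd8neo/neo against Chd8+/-, 2 of 10 members fell, again *Cntn1* and *Cntn4*, where 5.28% of all genes were called and 3.28% were called lower. The median of the members was -0.42 there, against 0.0062 over all genes, and these comparisons share the Chd8neo/neo libraries. The 12 markers of early neurons had medians of -0.312 against Chd8+/+ and -0.423 against Chd8+/-, near those of the members. In Chd8neo/- against Chd8+/+, 11.5% of all genes were called and 5.99% were called lower. The members' median there, *Cntnap5c* included, was -0.20 against 0.0011.

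**Figure D2:**
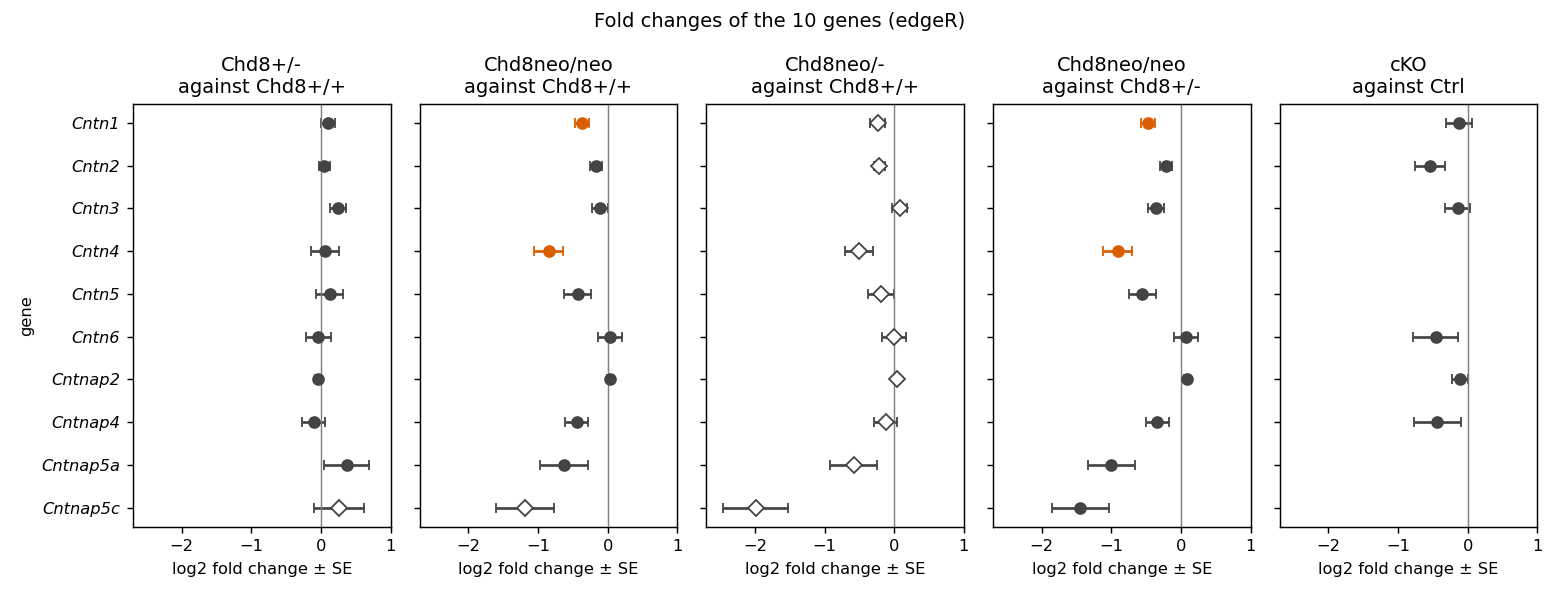
log2 fold change ± SE (edgeR, n = 3 per group) of each gene in 5 comparisons, with orange circles for an adjusted p under 0.05, dark circles for other tested values and open diamonds for values given without a test. *Cntn1* and *Cntn4* are the only orange points, in both comparisons of Chd8neo/neo, and genes with no point had too few counts at E10.5.

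*Cntn4*, a contactin of olfactory and visual axons, lies on chromosome 6 (GRCm38, 105677660 to 106699310, plus strand), in the same stretch as *Cntn3* and *Cntn6*. Its levels were 3.19, 4.30 and 3.44 CPM in Chd8+/+ (replicates 1 to 3) and 3.75, 2.98 and 4.63 in Chd8+/-. They were 1.77, 1.55 and 2.73 in Chd8neo/neo and 2.36, 2.52 and 2.80 in Chd8neo/-. Every library of both hypomorphs lay below every Chd8+/+ and Chd8+/- library, and within Chd8neo/neo replicate 3 was the highest. The fall in Chd8neo/neo was -0.85 (log2, SE 0.21, edgeR adjusted p = 0.0269) against Chd8+/+ and -0.91 (SE 0.21, adjusted p = 0.0294) against Chd8+/-. In Chd8neo/- the log2 value against Chd8+/+ was -0.51 (SE 0.21), given without a test.

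*Cntn1*, which pairs with contactin-associated proteins at axon and glia contacts, lies on chromosome 15 (92051165 to 92341967, plus strand). It was at 9.30, 9.44 and 7.99 CPM in Chd8+/+ and at 10.1, 9.97 and 8.68 in Chd8+/-. It was at 7.56, 6.16 and 7.03 CPM in Chd8neo/neo and at 7.53, 6.95 and 8.16 in Chd8neo/-. The Chd8neo/neo libraries did not overlap those of Chd8+/+ or Chd8+/-, whereas Chd8neo/- replicate 3 lay inside the Chd8+/+ range. The fall in Chd8neo/neo was -0.37 (SE 0.10, edgeR adjusted p = 0.0424) against Chd8+/+ and -0.47 (SE 0.10, adjusted p = 0.0255) against Chd8+/-. The untested value of Chd8neo/- was -0.24 (SE 0.10).

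The calls of *Cntn1* and *Cntn4* were near the threshold. Against Chd8+/+, the adjusted p ranged over 21 alternatives from 0.0147 to 0.183 for *Cntn1*, with 12 of them past the threshold, and from 0.00263 to 0.112 for *Cntn4*, with 15 past it. The call of *Cntn1* was lost without Chd8+/+ replicate 1 or 2, Chd8neo/neo replicate 1 or 2 or Chd8neo/- replicate 1, and that of *Cntn4* without Chd8+/+ replicate 2 or 3 or Chd8neo/neo replicate 1 or 2. Against Chd8+/-, *Cntn1* lost its call without Chd8+/- replicate 1 or Chd8neo/neo replicate 1 or 2, and *Cntn4* without these or Chd8+/- replicate 3. With sex-linked expression as a covariate, the adjusted p was 0.0835 for *Cntn1* and stayed under the threshold for *Cntn4* against Chd8+/+, and it was 0.0527 and 0.0533 against Chd8+/-.

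Because *Cntn1* and *Cntn4* were the members called, the 250 bases before their RefSeq start sites (GRCm38.p6) are shown, with each CG dinucleotide in capitals. Of the 10 members, 7 matched the RefSeq promoter table, and for each gene the entry nearest to the gene start annotated in the count tables is printed. For *Cntn1* the window ends at that start, whereas for *Cntn4* the nearest RefSeq start lies 441105 bases inside the annotated gene.
Cntn1, chr15:92050915-92051164, plus strand: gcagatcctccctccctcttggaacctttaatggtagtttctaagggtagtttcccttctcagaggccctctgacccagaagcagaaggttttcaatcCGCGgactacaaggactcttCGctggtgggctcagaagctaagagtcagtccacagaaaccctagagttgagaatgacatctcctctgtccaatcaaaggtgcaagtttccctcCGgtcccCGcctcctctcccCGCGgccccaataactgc
Cntn4, chr6:106118515-106118764, plus strand: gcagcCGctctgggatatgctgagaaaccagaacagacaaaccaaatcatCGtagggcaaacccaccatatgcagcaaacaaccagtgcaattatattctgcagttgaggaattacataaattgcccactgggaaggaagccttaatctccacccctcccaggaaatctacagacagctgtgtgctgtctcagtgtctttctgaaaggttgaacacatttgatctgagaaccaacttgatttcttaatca
CG, which reads the same on both strands, occurred 7 times in the *Cntn1* window and 2 times in the *Cntn4* window. Of the 32851 promoters in the table, 46.3% held at least 7 and 81.2% held at least 2, and the median was 6. The next *Cntn4* entry (chr6:106118692-106118941), which overlaps the printed window, held 12, and 33.5% of promoters held at least as many. By the same choice of nearest entry, the count was 24 for *Cntn5* and 0 for *Cntn3*, whose entry lies 108434 bases inside the annotated gene.

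*Cntn2* was at 161, 179 and 169 CPM in Chd8+/+ and at 179, 195 and 151 in Chd8+/-. It was at 151, 144 and 158 CPM in Chd8neo/neo and at 135, 152 and 151 in Chd8neo/-. The hypomorph libraries all lay below the Chd8+/+ libraries, by a small margin. The log2 value was -0.17 (SE 0.08, edgeR adjusted p = 0.221) for Chd8neo/neo against Chd8+/+ and -0.21 (SE 0.08, adjusted p = 0.137) against Chd8+/-, and the untested value of Chd8neo/- was -0.21 (SE 0.08).

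*Cntn5*, which occurs in subsets of neurons of the sensory pathways, was at 3.33, 3.80 and 3.81 CPM in Chd8+/+ and at 4.25, 3.28 and 4.40 in Chd8+/-. It was at 2.32, 2.05 and 3.75 CPM in Chd8neo/neo and at 2.81, 3.50 and 3.24 in Chd8neo/-. Chd8neo/neo replicates 1 and 2 lay below all Chd8+/+ libraries, and replicate 3 lay within their range. The log2 value of Chd8neo/neo was -0.43 (SE 0.20, edgeR adjusted p = 0.188) against Chd8+/+ and -0.55 (SE 0.20, adjusted p = 0.107) against Chd8+/-.

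*Cntn3* and *Cntn6* were not called in any comparison of all libraries. *Cntn3* was at 3.03, 3.07 and 2.83 CPM in Chd8+/+, 3.39, 3.73 and 3.48 in Chd8+/-, 2.58, 2.71 and 2.98 in Chd8neo/neo and 3.29, 2.88 and 3.26 in Chd8neo/-. Its Chd8+/- libraries were above all the others, with a log2 value of 0.25 (SE 0.11, edgeR adjusted p = 0.79) against Chd8+/+ and of -0.36 (SE 0.11, adjusted p = 0.0741) for Chd8neo/neo against Chd8+/-. The gene Gm44189 overlaps *Cntn3* on the same strand and had 42 to 99 counts per library at E12.5, and reads that fall on exons of both genes were left out of the counting. *Cntn6*, a contactin of cerebellar and deep-layer cortical neurons, was at 3.82, 3.42 and 4.32 CPM in Chd8+/+ and at 3.66, 4.81 and 3.30 in Chd8neo/neo, with overlapping groups in every comparison.

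Within Chd8+/-, replicate 2 had the highest *Cntn6* level of its group, 4.82 CPM against 3.47 and 2.98. The same library had the lowest *Cntn4*, *Cntn5* and *Cntnap4* of its group, and its 9 marker genes of diencephalon and midbrain summed to 354 CPM, against 157 to 199 CPM in the other E12.5 libraries. Its 7 meningeal and mesenchymal markers summed to 1017 CPM, against 460 to 736 CPM in the others. The part of these markers in the member values was not tested.

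Among the contactin-associated proteins, *Cntnap2*, a gene of chromosome 6 (45060061 to 47304213) known for its link to autism and epilepsy, was the steadiest member at E12.5. Its level was 228, 242 and 236 CPM in Chd8+/+, 238, 221 and 226 in Chd8+/-, 244, 252 and 230 in Chd8neo/neo and 241, 242 and 241 in Chd8neo/-. The groups overlapped in all E12.5 comparisons. Its log2 values were -0.04 (SE 0.04, edgeR adjusted p = 0.935) in Chd8+/- and 0.04 (SE 0.04, adjusted p = 0.634) in Chd8neo/neo against Chd8+/+, with an untested 0.04 (SE 0.04) in Chd8neo/-. The pseudogene Rbpj-ps3 lies within *Cntnap2* on the opposite strand with 174 to 315 counts per library at E12.5, beside 9129 to 15237 for *Cntnap2*.

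*Cntnap4*, a gene of interneuron synapses, was at 7.24, 9.42 and 8.23 CPM in Chd8+/+ and at 9.15, 5.96 and 8.01 in Chd8+/-. It was at 5.86, 4.97 and 7.42 CPM in Chd8neo/neo and at 7.55, 7.32 and 7.93 in Chd8neo/-. Chd8neo/neo replicates 1 and 2 and Chd8+/- replicate 2 lay below the Chd8+/+ range. The log2 value of Chd8neo/neo was -0.45 (SE 0.16) against Chd8+/+, with an adjusted p of 0.108 in edgeR and 0.0481 in DESeq2.

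**Figure D3:**
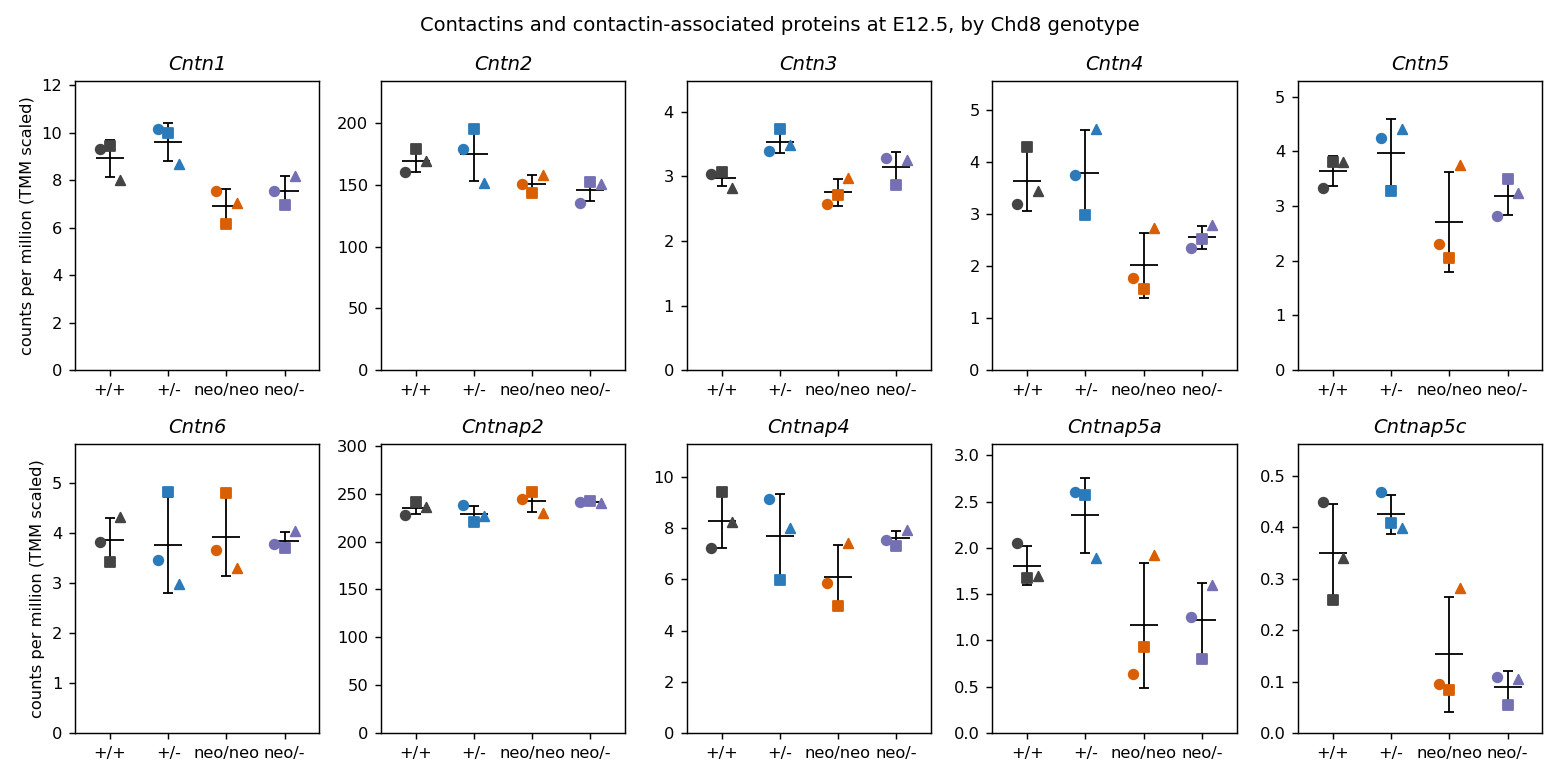
CPM of each gene in the 12 libraries at E12.5 by genotype, 1 panel per gene with its own linear axis from 0, with circles, squares and triangles for replicates 1, 2 and 3 and black bars for the mean ± SD. *Cntnap2* keeps between 221 and 252 CPM in all libraries, and *Cntn4* has its hypomorph libraries below the others.

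*Cntnap5a* and *Cntnap5c* are near copies, which bears on how their reads were counted. Their coding sequences, in the GENCODE M21 transcripts of GRCm38, shared 90.3% of aligned bases, and *Cntnap5b*, the other relative, shared 90% with *Cntnap5c*. A stretch of 120 coding bases in exon 10 is shown because it is among the most alike parts of the 3 genes, with capitals for bases that differ from *Cntnap5c*.
Cntnap5c, chr17:58104638-58104757, plus strand: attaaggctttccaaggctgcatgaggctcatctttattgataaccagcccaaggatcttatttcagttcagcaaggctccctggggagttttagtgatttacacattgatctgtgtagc
Cntnap5a, chr1:116188305-116188424, plus strand: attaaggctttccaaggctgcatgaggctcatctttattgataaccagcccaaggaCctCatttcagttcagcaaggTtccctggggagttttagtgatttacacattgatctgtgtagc
Cntnap5b, chr1:100164109-100164228, plus strand: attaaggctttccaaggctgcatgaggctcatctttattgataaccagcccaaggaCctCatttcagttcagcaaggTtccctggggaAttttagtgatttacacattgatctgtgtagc
The stretch differed from *Cntnap5c* at 3 bases in *Cntnap5a* and at 4 in *Cntnap5b*. Of the 3857 distinct words of 75 bases (1 read length) in *Cntnap5c* transcripts, 12 also occurred in *Cntnap5a*, 0.311% of them, and of the 10871 words of *Cntnap5a* 29 occurred in *Cntnap5b* or *Cntnap5c*. Reads that align to several places were not counted at E12.5, so few reads of these genes were open to loss by identical sequence. How reads with mismatches were placed was not tested.

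*Cntnap5c*, on chromosome 17 (57769570 to 58410342), rested on very few reads. Its raw counts were 23, 11 and 16 in Chd8+/+, 18, 18 and 19 in Chd8+/-, 4, 5 and 15 in Chd8neo/neo and 5, 3 and 5 in Chd8neo/-. All Chd8neo/- libraries lay below all others but Chd8neo/neo replicates 1 and 2, and Chd8neo/neo replicate 3 lay within the Chd8+/+ range by CPM. As CPM the means were 0.350 ± 0.0957, 0.426 ± 0.0380, 0.153 ± 0.112 and 0.0890 ± 0.0307 in the same order. The log2 values against Chd8+/+ were 0.26 (SE 0.36) in Chd8+/-, -1.19 (SE 0.42) in Chd8neo/neo and -1.99 (SE 0.47) in Chd8neo/-, all untested because they share the libraries on which the gene was selected.

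The comparison of Chd8neo/neo with Chd8+/- used none of those libraries in its groups, although all 12 libraries shared the estimate of the spread. There the Chd8neo/neo libraries of *Cntnap5c* lay below the Chd8+/- libraries with no overlap, at a log2 value of -1.45 (SE 0.41, edgeR adjusted p = 0.0525), which missed the threshold. The gene passed the count filter only through Chd8+/+ and Chd8+/-, the groups where it was higher, as Chd8neo/neo replicates 1 and 2 held 4 and 5 counts. No conclusion is drawn from its p-values here, because the filter favoured genes high in Chd8+/-. The adjusted p ranged from 0.00522 to 0.187 over the 18 alternatives that gave one, and 2 of them passed. The pseudogene Rpl7a-ps5 lies within *Cntnap5c* on the opposite strand with 89 to 118 counts per library at E12.5, more than *Cntnap5c* in every library, at 2.23 ± 0.304 CPM in Chd8+/+ and 2.15 ± 0.0509 in Chd8neo/-.

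*Cntnap5a* was at 2.06, 1.68 and 1.70 CPM in Chd8+/+ and at 2.61, 2.57 and 1.89 in Chd8+/-. It was at 0.638, 0.926 and 1.92 CPM in Chd8neo/neo and at 1.26, 0.804 and 1.60 in Chd8neo/-. The Chd8neo/- libraries were below those of Chd8+/+, and Chd8neo/neo replicate 3 stood apart from the low replicates 1 and 2. The log2 value of Chd8neo/neo was -0.63 (SE 0.34, edgeR adjusted p = 0.275) against Chd8+/+ and -1.0 (SE 0.34, adjusted p = 0.102) against Chd8+/-, where DESeq2 gave an adjusted p of 0.0259.

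Chd8neo/neo replicate 3 was the highest of its group for 7 of the 10 members and reached the Chd8+/+ range for 6. Without it, 8.43% of all genes tested were called lower against Chd8+/+ and 7.27% against Chd8+/-. In those fits 5 of 9 members were called lower against Chd8+/+ (*Cntn1*, *Cntn4*, *Cntn5*, *Cntnap4* and *Cntnap5a*) and 6 of 10 against Chd8+/- (*Cntn1*, *Cntn3*, *Cntn4*, *Cntn5*, *Cntnap5a* and *Cntnap5c*). The last of these, *Cntnap5c*, passed the count filter only through the groups where it was higher. Without replicate 1 or without replicate 2 of Chd8neo/neo, 0 were called in both comparisons, where edgeR called 1.61% and 1.26% of all genes lower against Chd8+/+ and 0.178% and 0.0683% against Chd8+/-. Replicates 1 and 2 had *Xist* at 2011 and 1828 CPM and replicate 3 at 2.49 CPM. The 12 markers of early neurons summed to 3261, 3563 and 3862 CPM in the 3 Chd8neo/neo libraries, to 4069 to 4810 in Chd8+/+, 4283 to 4844 in Chd8+/- and 3602 to 4108 in Chd8neo/-. Of those markers, 4 of 12 fell in Chd8neo/neo against Chd8+/+ (*Dcx*, *Elavl4*, *Map2* and *Snap25*). In bulk tissue, fewer neurons and less RNA of these genes per neuron cannot be told apart, and the part of sex and of neuron number in the member values was not tested.

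**Figure D4:**
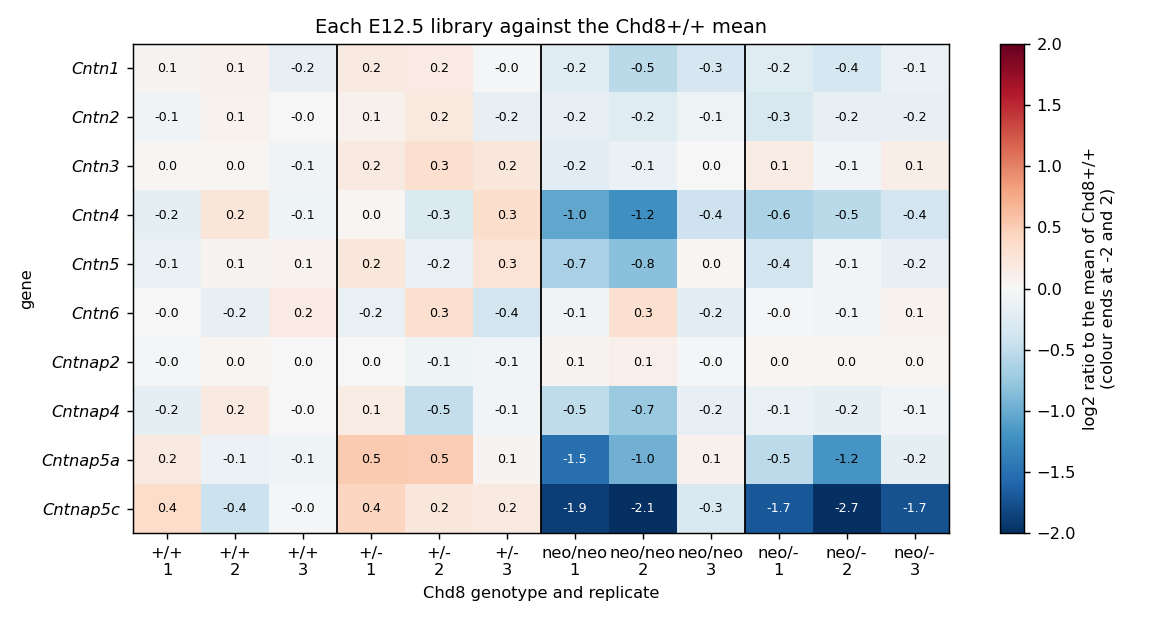
log2 ratio of each E12.5 library to the mean of the 3 Chd8+/+ libraries, for the 10 genes, with blue for lower and red for higher. Chd8neo/neo replicates 1 and 2 are blue for *Cntn4*, *Cntn5*, *Cntnap4*, *Cntnap5a* and *Cntnap5c*, and replicate 3 is paler in each of these rows.

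At E10.5 the question was whether loss of *Chd8* in neural progenitors altered the family before most neurons form. Of the 6 members with enough counts to test, none was called in cKO against Ctrl by edgeR or by DESeq2, where 11.4% of all genes were called by edgeR, and 1 had an unadjusted p under 0.05. The median log2 value of these 6 was -0.29, against -0.0019 over all genes, and their groups overlapped in each case. *Cntn2* was at 2.26, 1.47 and 2.68 CPM in Ctrl and at 1.27, 1.73 and 1.41 in cKO, a log2 value of -0.54 (SE 0.22, edgeR adjusted p = 0.136). Without Ctrl replicate 2 its adjusted p was 0.0223, and over its 14 alternatives it ranged up to 0.403. Ctrl replicate 2 had *Xist* at 3.09 CPM, against 1779 and 2141 in replicates 1 and 3, and Y-linked genes at 248 CPM. All cKO libraries held both, with *Xist* at 708 to 1069 CPM and Y-linked genes at 69.8 to 135 CPM. Early neuron markers summed to 255 CPM in Ctrl replicate 2, against 439 and 388 in replicates 1 and 3. The part of sex and of neuron number in these values was not tested.

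*Cntnap2* was at 249, 178 and 190 CPM in Ctrl and at 184, 197 and 191 in cKO, so that Ctrl replicate 1 was the highest library. Its log2 value was -0.11 (SE 0.12, edgeR adjusted p = 0.594). *Cntn1*, *Cntn3* and *Cntn6* had log2 values of -0.12 (SE 0.19), -0.14 (SE 0.18) and -0.46 (SE 0.32), and *Cntnap4* had -0.43 (SE 0.34) on 9 to 23 counts per library. *Cntn4*, *Cntn5*, *Cntnap5a* and *Cntnap5c* did not pass the filter, with 1 to 8, 0 to 17, 0 to 3 and 0 to 2 counts per library, and differences were not detectable at this depth.

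The other genes of the adhesion pathway were counted on 5 lists of 40 partner genes. In Chd8neo/neo, 15 of 40 fell and none rose against Chd8+/+, with a median log2 value of -0.33. The early neuron markers moved alike there, with 4 of 12 lower, none higher and a median of -0.312. Of all genes tested, 4.45% were called lower there. Against Chd8+/-, 16 of 40 fell, beside 3.28% of all genes tested. The early neuron markers had 3 of 12 lower there, none higher and a median of -0.423. With the replicate number as a block 8 partner genes fell, and same-numbered libraries of these groups deviated together. In Chd8neo/- against Chd8+/+, 10 partner genes fell and 1 rose, with a median of -0.24. The early neuron markers had 2 of 12 lower there, none higher and a median of -0.155. Of all genes, 5.99% were called lower and 11.5% in either direction there. In Chd8+/- none was called by edgeR (median 0.02), beside 0.0213% of all genes. Without Chd8neo/neo replicate 3 the counts in Chd8neo/neo were 26 and 25, and they were 2 and 0 without its replicate 1 or its replicate 2. Without replicate 3, 8.43% and 7.27% of all genes were called lower in these comparisons. The shares were 1.61% and 0.178% without replicate 1, and 1.26% and 0.0683% without replicate 2. In Chd8neo/neo against Chd8+/+ the count was 1 without Chd8+/+ replicate 2 and 5 without replicate 3. Against Chd8+/- it was 0 without Chd8+/- replicate 1. It was 8 without Chd8+/- replicate 3, 9 without Chd8+/+ replicate 3, 10 without Chd8neo/- replicate 1 and 9 without Chd8neo/- replicate 2. In Chd8neo/- against Chd8+/+ the 11 calls became 5 without Chd8+/+ replicate 2, 7 without Chd8+/+ replicate 3, 3 without Chd8neo/- replicate 1 or 2, and 17 without Chd8neo/neo replicate 3. With sex-linked expression as a covariate the count in Chd8neo/neo was 8 against Chd8+/+ and 2 against Chd8+/-. For alternatives other than leaving out a Chd8neo/neo library, the share over all genes is not given here.

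Of the L1 and NCAM family partners, which bind contactins at the cell surface, 3 of 6 fell in Chd8neo/neo against both Chd8+/+ and Chd8+/-, namely *Ncam1*, *Nfasc* and *Nrcam*. *Ncam1* went from 197 ± 9.69 CPM in Chd8+/+ to 148 ± 17.8 in Chd8neo/neo (log2 -0.41, SE 0.08, edgeR adjusted p = 0.0118). *Nfasc*, which encodes neurofascin, went from 154 ± 10.8 to 117 ± 12.8 (log2 -0.39, SE 0.08, adjusted p = 0.0139). In Chd8neo/-, 2 of 6 fell, *Nfasc* by -0.35 (SE 0.08, adjusted p = 0.0166) and *Ncam1* by -0.32 (SE 0.08, adjusted p = 0.0246).

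Of the 7 ligands and receptors, 2 fell in Chd8neo/neo against Chd8+/+ and against Chd8+/-, and none in Chd8neo/-. *Tnr*, which encodes the matrix ligand tenascin-R, went from 8.41 ± 1.34 CPM in Chd8+/+ to 5.0 ± 1.18 in Chd8neo/neo (log2 -0.74, SE 0.18, edgeR adjusted p = 0.0279). *App*, the amyloid precursor gene, went from 239 ± 1.74 to 203 ± 14.7 (log2 -0.24, SE 0.06, adjusted p = 0.0211).

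The juxtaparanodal and paranodal complex had 7 of 13 genes lower in Chd8neo/neo against Chd8+/+, 5 against Chd8+/-, and 3 lower and 1 higher in Chd8neo/-. *Ank2* and *Ank3*, which encode the ankyrins that tie such complexes to the cytoskeleton, led in both hypomorphs. *Ank2* was at 258 ± 7.92 CPM in Chd8+/+, 218 ± 2.02 in Chd8neo/neo (log2 -0.24, SE 0.04, edgeR adjusted p = 0.00479) and 216 ± 6.78 in Chd8neo/- (log2 -0.26, SE 0.04, adjusted p = 0.0013). *Ank3* fell by 0.39 (SE 0.09, adjusted p = 0.0236) and by 0.40 (SE 0.09, adjusted p = 0.015) on the log2 scale. *Kcnab2*, a potassium channel subunit, rose in Chd8neo/- from 18 ± 0.597 to 20.9 ± 0.243 CPM (log2 0.22, SE 0.05, adjusted p = 0.0202).

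Of the 11 related immunoglobulin-domain axonal proteins, 3 fell in Chd8neo/neo against Chd8+/+ and 5 against Chd8+/-, and 5 fell in Chd8neo/-. *Dscam*, an adhesion molecule of neurite spacing, went from 20.2 ± 1.33 CPM in Chd8+/+ to 13.1 ± 2.62 in Chd8neo/neo (log2 -0.63, SE 0.13, edgeR adjusted p = 0.0143) and 13 ± 1.22 in Chd8neo/- (log2 -0.63, SE 0.13, adjusted p = 0.00883). *Dscaml1* fell in Chd8neo/- from 30.2 ± 2.22 to 19.3 ± 0.752 CPM (log2 -0.65, SE 0.14, adjusted p = 0.0137). At E10.5 *Dscaml1* rose in cKO from 0.175 ± 0.0504 to 0.441 ± 0.0482 CPM (log2 1.31, SE 0.30, adjusted p = 0.0197). Its level was low there, in Ctrl close to the cut-off of the count filter. *Ntm* rose in cKO from 4.49 ± 0.149 to 6.15 ± 1.05 (log2 0.46, SE 0.13, adjusted p = 0.0484). These were the 2 partner genes of 37 tested that were called at E10.5, where 11.4% of all genes tested were called. Without cKO replicate 2 or 3 none was called, without Ctrl replicate 1 or 3 there was 1, and without cKO replicate 1 there were 5.

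The 3 other contactin-associated proteins had no call against Chd8+/+. *Cntnap5b* fell in Chd8neo/neo against Chd8+/-, from 1.35 ± 0.238 to 0.783 ± 0.00768 CPM (log2 -0.78, SE 0.21, edgeR adjusted p = 0.0494). Its mean was 1.29 ± 0.110 CPM in Chd8+/+ and 0.833 ± 0.255 in Chd8neo/-. *Cntnap1* was at 2.22 ± 0.0934 CPM in Chd8+/+ and 1.76 ± 0.530 in Chd8neo/neo, and *Cntnap3* was at 2.89 ± 0.198 and 1.86 ± 0.428.

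As a description of pattern over the 12 E12.5 libraries, 3 members were compared with the tested genes of at least 1 CPM on average. The libraries come in 4 genotypes of 3, so part of any likeness is shared genotype. *Cntnap2* was most like *Atp5g3* (Pearson r 0.939, Spearman rho 0.93), *Ckb* (0.937 and 0.853) and *Psmc5* (0.92 and 0.874). *Cntn2* was most like *Mtus2* (0.927 and 0.881), *Dop1b* (0.909 and 0.867) and *Zfp619* (0.907 and 0.944). *Cntnap5c* was most like *Capn7* (0.941 and 0.867), *Tbc1d24* (0.932 and 0.923) and *Zfp738* (0.928 and 0.797), on its own few counts. These were the highest of about 14786 values of r for each gene.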

How the data were processed

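Cortical mRNA of 12 libraries at E12.5 and 6 at E10.5 had been made into strand-marked, paired-end libraries and sequenced in 2 runs each. Per the labels and the paper's methods, the authors trimmed reads with Trim Galore 0.4.1, aligned them to GRCm38.p4 with TopHat2 2.1.0, counted them on genes with featureCounts 1.5.0 and used DESeq2 for their own tests. The deposited tables hold unnormalized read counts for each gene in each run, with gene lengths beside them. The E12.5 counting took no account of strand and left out reads with several alignments or genes, so opposite-strand genes cannot be told apart where exons overlap. The counting command for E10.5 is not given in the sources used here.

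Runs were summed per library, and groups were taken from the labels. Counts were fitted in R 4.3.3 with edgeR 4.0.16 (filterByExpr defaults, TMM, robust quasi-likelihood test, two-sided) with genotype as the only term, all 12 E12.5 libraries together (18810 genes tested) and the E10.5 libraries alone (18435). P-values were adjusted by Benjamini-Hochberg over all genes tested and called under 0.05. They rest on the spread between libraries within groups, estimated jointly over all groups of a stage and moderated across genes. Each group had 3 libraries. No fold change was given where all libraries of a group had at most 3 counts, and floors cover counting error only. Log CPM used a prior count of 2. The edgeR and DESeq2 fits were checked on simulated counts for Chd8+/- against Chd8+/+ and for cKO against Ctrl. The other comparisons, the block and the covariate were not checked in this way.

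Alternatives were DESeq2 1.42.0, RLE and upper quartile scaling, no filter, the replicate number as a block, a covariate of *Xist* against Y-linked counts, only the 2 groups compared, either run alone, and each library left out. Same-numbered Chd8neo/neo and Chd8+/- libraries had correlated deviations (r = 0.108, 0.195 and 0.199), although no source names what they share. No other comparison had r over 0.1 in every pair. The main fit had no term for the replicate number, so its values did not pair these libraries. The block alternative did, and its term covered all libraries of a stage.

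The members and the lists of partner and marker genes were chosen with earlier results of these data known. The text names all 10 members, the 3 genes most like *Cntnap5c*, *Cntn2* and *Cntnap2*, and at most 3 called partner genes per list and comparison, by smallest adjusted p. *Cntnap1*, *Cntnap3*, overlapping genes and called markers were added for context. The results of some marker genes are not reported here. Sequences came from GENCODE M21 and RefSeq tables of GRCm38. Figures were drawn with Python 3.11.15 and matplotlib 3.10.9.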

Additional observations from a re-analysis of the deposited data

How the results depend on the processing

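Across 21 alternatives at E12.5 and 14 at E10.5, 857 of 915 recomputed gene values counted as unchanged. Of the tested values, 27 lost a call, 12 gained one and 18 changed sign. The lost calls were all of *Cntn1* and *Cntn4* in Chd8neo/neo. Of 21 alternatives, 9 and 6 lost the call against Chd8+/+, and 6 and 6 against Chd8+/-. Values far from the threshold could hardly change verdict, so the unchanged total does not measure how firm the calls were. A tested value counted as unchanged when it kept its direction and verdict. An untested value did so when it moved by less than the SD between its libraries, whatever its sign. No member was called in Chd8+/- under any alternative. In Chd8neo/neo against Chd8+/+, the 2 calls became 1 with the replicate block, with the sex covariate and with either run alone, and 0 with only the 2 groups compared; leaving out 1 library gave 0 to 5. Against Chd8+/- the 2 calls became 0 with the sex covariate and with only the 2 groups compared and 1 with the first run alone, and 0 to 6 without 1 library. The replicate block kept both calls there. In cKO, leaving out 1 library gave 0 to 1. The share of all genes called also moved with the fit, as given above where a Chd8neo/neo library was left out. For the other alternatives it is not given, so these counts do not tell a change in the members from a change over all genes.

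Partner genes called in Chd8neo/neo against Chd8+/+ numbered 15, and 26 with DESeq2, 8 with the sex covariate, 6 with only the 2 groups and 1 to 26 without 1 library. Against Chd8+/- they numbered 16, and 8 with the replicate block, 2 with the sex covariate, 0 with only the 2 groups, 10 with the first run and 0 to 25 without 1 library. In Chd8neo/- the 11 calls became 17 with DESeq2, 19 with only the 2 groups and 3 to 17 without 1 library. In cKO the 2 calls became 5 with DESeq2, 1 with upper quartile scaling or the second run, 7 with no filter, 4 with the replicate block or the sex covariate and 0 to 5 without 1 library. These partner counts likewise lack the share over all genes, except where a Chd8neo/neo library was left out. The cause was not tested.

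All sign changes of tested values were of values that were not called. The untested *Cntn6* value in Chd8neo/- against Chd8+/+ also changed sign, from -0.0061 to 0.0546 with the sex covariate. In Chd8+/- against Chd8+/+, *Cntn4* was -0.0723 in the first run and *Cntn6* 0.0487 in the second, and without 1 library *Cntn2* ranged from -0.0373 to 0.14, *Cntn4* from -0.11 to 0.21, *Cntn6* from -0.26 to 0.11 and *Cntnap4* from -0.245 to 0.0495. *Cntn6* in Chd8neo/neo was -0.0278 with the sex covariate and -0.0555 in the second run against Chd8+/+ (-0.15 to 0.13 without 1 library), and -0.0018 and -0.10 against Chd8+/- (-0.11 to 0.29). *Cntnap2* in cKO ranged from -0.20 to 0.0515. *Cntnap5c* in Chd8neo/neo against Chd8+/+ was -1.99 without Chd8neo/neo replicate 3. It was too low to be fitted in either run alone. Depth limits *Cntnap5c* at E12.5 and 4 members at E10.5.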

Other observations

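Of 7 Cajal-Retzius genes, *Cacna2d2* alone fell in Chd8neo/neo and in Chd8neo/- against Chd8+/+ and in cKO, and the list summed to 280, 306 and 348 CPM in Chd8neo/neo and 322 to 348 CPM in Chd8neo/-, against 350 to 403 CPM in Chd8+/+. Of 8 radial glia genes, *Pax6* and *Sox2* rose in Chd8neo/neo against Chd8+/+. Of 9 ventral telencephalon genes, *Gad1* fell in both hypomorphs against Chd8+/+. No gene of 5 for intermediate progenitors, 9 for diencephalon and midbrain or 6 for sensory ganglia and cranial motor neurons was called in any comparison, although 2 and 1 genes of the last lists had too few counts to test. Of 6 subplate genes, *Sox5* fell in Chd8neo/-, and the list summed to 516 to 599 CPM in Chd8neo/neo and 555 to 575 CPM in Chd8neo/-, against 605 to 647 CPM in Chd8+/+ and 516 to 679 CPM in Chd8+/-. Of 6 endothelial genes, *Kdr* fell in Chd8neo/neo against Chd8+/+ and *Cdh5* rose in cKO. Of 7 meningeal genes, *Col1a2* and *Col3a1* rose in cKO, as did *Cx3cr1* of 5 microglial genes.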
